A study of Mus musculus with 19 samples.

Results

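The complement and coagulation genes described here are 38 genes of blood-borne defence and clotting. They are textbook members of both cascades, chosen by name with earlier results of these data known. All 38 were found among the 35498 genes quantified in 19 bulk RNA libraries of mouse liver, and all 38 were among the 13594 genes with enough reads to test. By the cell type known to be their main source, 6 were taken as macrophage-made (C1qa, C1qb, C1qc, C3ar1, C5ar1 and F13a1) and 32 as hepatocyte-made. The livers came from male mice that the labels give as C57Bl/J6 in the genotype field, at 24 weeks, in the treatment groups WSD+beta-Glucan (n = 4), WSD (n = 5), CTRL+beta-Glucan (n = 5) and CTRL (n = 5). The title of the series places the question in non-alcoholic fatty liver disease, with oat beta-glucan, a soluble cereal fibre, given in the diet. WSD is not spelled out in the labels and stands here as a group name, and no other allele or agent is given. The labels do not say that each library came from its own mouse, so every p-value measures the spread between these libraries, which may be technical.

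Complement is a cascade of plasma proteins that tags and lyses microbes and clears dying cells. It starts from C1q bound to antibody or debris, from lectins bound to sugars, or from slow activation of C3 on any surface, and it ends in a membrane pore built from C5 to C9. Coagulation is a second protease cascade that ends in thrombin and fibrin, with plasmin dissolving the clot and several inhibitors holding it in check. Hepatocytes secrete most of the proteins of both cascades, while C1q is made mainly by macrophages, and the receptors for the split products C3a and C5a sit mainly on myeloid cells.

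The libraries held between 17253823 and 23450232 estimated reads each. The livers expressed hepatocyte markers in every group, and the summed level of 12 such markers (Alb and Apoa1 among them) was lower in WSD, at 76800 to 91600 CPM, than in CTRL, at 129000 to 165000 CPM. Alb alone was at 31300 to 41600 CPM in WSD and 71900 to 102000 CPM in CTRL. Of the 12, 7 fell and 5 did not pass with TMM scaling, and 4 fell and 3 rose with library size alone. Over all genes tested, 27.1% fell with TMM scaling, and 4.54% fell and 57.9% rose with library size alone. CPM are read counts scaled to a common library size with TMM factors, which assumes that most genes do not change. The TMM factors moved with the group, at 1.14 or more in WSD and 0.896 or less in CTRL, and scaling by library size alone therefore gives other directions for many genes. The 3 libraries whose titles carry the lowest numbers, which are replicate 1 of WSD+beta-Glucan with replicate 1 and replicate 2 of CTRL+beta-Glucan, ran high in their groups for most hepatocyte-made members, and results that rest on them are given with and without them.

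Between WSD and CTRL the members split by cell of origin. All 6 macrophage-made members rose in WSD under every setting tried. In the main fit, which used TMM scaling, they rose by 1.75 to 3.30 on the log2 scale, with a median of 2.79. With TMM scaling 25 of the 32 hepatocyte-made members fell and none rose (median log2 fold change -0.50), whereas with library size alone only 5 fell and 2 rose and the median was -0.03. The test was edgeR's quasi-likelihood F test with Benjamini-Hochberg adjustment over all genes tested and a threshold of 0.05. At that threshold 26.0% of all genes tested were higher and 27.1% lower in WSD, and with library size alone 57.9% were higher and 4.54% lower. The median over all genes tested was -0.04 with TMM scaling and 0.43 with library size alone. Measured from that median, the hepatocyte-made members lay at -0.45 with TMM scaling and at -0.46 with library size alone, and 31 of the 32 lay below it under both. Measured in the same way, the 6 macrophage-made members lay at 2.83 under both scalings. As TMM-scaled CPM, the WSD and CTRL libraries did not overlap for all 6 macrophage-made members, which were higher in WSD. Nor did they for 25 of the 32 hepatocyte-made members, which were lower in WSD. Over all genes tested, 38.4% did not overlap in either direction, and 18.4% were lower without overlap. Overlap over all genes was counted with TMM scaling only. As TPM, a level per transcript length, only C8b and Klkb1 of those 25 still had libraries that did not overlap. Summed, the hepatocyte-made members took 1.36 ± 0.0385% of all TPM in WSD and 1.40 ± 0.115% in CTRL (SD, n = 5 each). In bulk RNA, fewer cells of a type and less RNA per cell cannot be told apart.

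**Figure D1:**
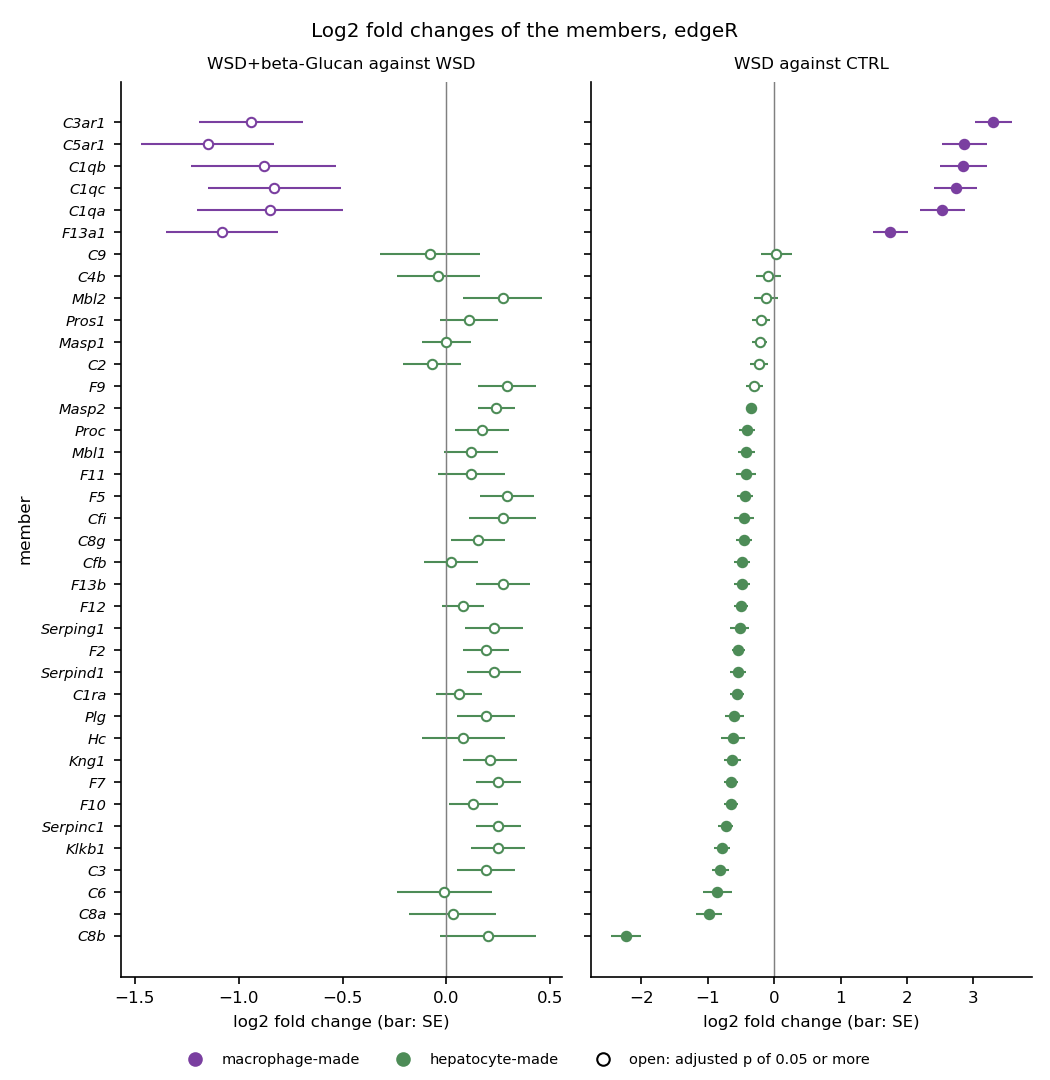
Log2 fold changes of the 38 members with their SE (edgeR, TMM scaling), for WSD+beta-Glucan against WSD on the left and WSD against CTRL on the right; filled points passed the adjusted p of 0.05. On the right the 6 macrophage-made members lie between 1.75 and 3.30 and the hepatocyte-made members between -2.23 and 0.03, of which 14 of 32 are positive with library size alone; on the left no point is filled.

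C1q is the recognition molecule of the classical pathway, built from the A, B and C chains of C1qa, C1qb and C1qc. The 3 genes are neighbours on 1 strand of chromosome 4 in the mouse annotation (GENCODE M21). C1qa was at 78.6, 58.9, 77.7 and 71.3 CPM in WSD+beta-Glucan, 138, 120, 119, 125 and 143 CPM in WSD, 47.6, 34.4, 29.5, 22.1 and 8.31 CPM in CTRL+beta-Glucan, and 36.2, 22.6, 24.7, 11.3 and 16.7 CPM in CTRL. C1qb was at 92.8, 77.3, 88.0 and 79.3 CPM in WSD+beta-Glucan, 148, 158, 146, 151 and 174 CPM in WSD, 45.3, 34.9, 25.3, 17.2 and 7.52 CPM in CTRL+beta-Glucan, and 32.8, 23.8, 22.7, 10.5 and 17.8 CPM in CTRL. C1qc was at 78.2, 61.0, 79.6 and 72.8 CPM in WSD+beta-Glucan, 124, 124, 127, 127 and 145 CPM in WSD, 40.1, 31.2, 28.0, 18 and 9.54 CPM in CTRL+beta-Glucan, and 32.8, 21.3, 18.2, 9.82 and 15.7 CPM in CTRL. For each chain every WSD library stood above every WSD+beta-Glucan library, and every WSD+beta-Glucan library above every library without WSD. In WSD against CTRL the log2 fold changes were 2.53 ± 0.34 (SE) for C1qa, 2.85 ± 0.36 for C1qb and 2.73 ± 0.32 for C1qc, with edgeR adjusted p = 1.15e-05, 4.47e-06 and 2.02e-06. These are 5.79-fold, 7.22-fold and 6.61-fold higher levels.

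The C1q chains varied little among WSD livers and much among the others. The coefficient of variation of C1qb was 8.69% in WSD+beta-Glucan, 7.32% in WSD, 56.7% in CTRL+beta-Glucan and 38.1% in CTRL. The chains stayed close to each other in level per length, with a small shift of C1qa against C1qb between WSD and CTRL. The log2 ratio of C1qa to C1qb in TPM, a level per transcript length, averaged -0.05 ± 0.08 in WSD+beta-Glucan, -0.08 ± 0.10 in WSD, 0.33 ± 0.14 in CTRL+beta-Glucan and 0.23 ± 0.11 in CTRL (SD), with the WSD and CTRL ranges not overlapping. For C1qc to C1qb the ranges overlapped, at -0.37 to -0.21 in WSD and -0.35 to -0.01 in CTRL. For C1qa to C1qc they also overlapped, at 0.11 to 0.33 in WSD and 0.28 to 0.63 in CTRL. Summed over the 3 chains, C1q made up 0.0651 ± 0.00678% of all TPM in WSD and 0.00722 ± 0.0032% in CTRL (SD, n = 5 each).

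The promoters of C1qb and C1qc are shown because both chains moved together and both hold the letters GAGGAA, a core of sites bound by the myeloid factor PU.1. These sequences are from RefSeq (GRCm38.p6, 210 bases upstream of the annotated start, 5′ to 3′ on the gene's strand). Capitals mark GAGGAA on either strand (TTCCTC where it lies on the other strand). The bases shown for C1qb lie at chr4:136886201-136886410 and those for C1qc at chr4:136892915-136893124, both on the minus strand.
C1qb: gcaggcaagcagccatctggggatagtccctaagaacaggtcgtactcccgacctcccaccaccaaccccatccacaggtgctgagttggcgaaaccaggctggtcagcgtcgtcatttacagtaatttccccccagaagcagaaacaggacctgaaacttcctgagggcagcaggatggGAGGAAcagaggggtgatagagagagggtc
C1qc: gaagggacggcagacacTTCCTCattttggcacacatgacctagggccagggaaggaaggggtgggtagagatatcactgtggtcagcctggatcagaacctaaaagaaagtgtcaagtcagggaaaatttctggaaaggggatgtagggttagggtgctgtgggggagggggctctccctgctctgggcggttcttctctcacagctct
The match starts at base -30 in C1qb and at base -193 in C1qc, counted from the start. Over windows of 250 bases before to 50 after the start, 4 of the 6 promoters listed for 5 macrophage-made members (66.7%) held GAGGAA on either strand, against 28.1% of 32544 promoters. These belong to C1qb, C1qc and F13a1, of which F13a1 has 2 listed, and C3ar1 and C5ar1 held no match. The same letters stood in 8.33% of the 24 promoters listed for 23 hepatocyte-made members. The table held 28 of the 38 members, and C1qa, C2, C4b, Cfb, Cfi, Kng1, Masp1, Plg, Proc and Serping1 were not matched. Spi1, the gene of PU.1, was at 17.7 ± 1.43 CPM in WSD and 1.91 ± 0.828 CPM in CTRL (SD, n = 5 each), a log2 fold change of 3.21 ± 0.30 (edgeR adjusted p = 1.09e-07). A match of letters is a description and shows no binding.

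The other macrophage-made members are the anaphylatoxin receptors and a clotting enzyme, all at low levels. C3ar1, the receptor for C3a, was at 3.90, 5.52, 5.84 and 4.21 CPM in WSD+beta-Glucan, 7.28, 8.83, 8.18, 8.42 and 14 CPM in WSD, 0.938, 1.80, 1.14, 1.07 and 0.495 CPM in CTRL+beta-Glucan, and 1.18, 0.975, 0.933, 0.414 and 1.18 CPM in CTRL. It rose in WSD against CTRL by 3.30 ± 0.28 on the log2 scale (9.86-fold, edgeR adjusted p = 1.38e-08), the largest change of any member. C5ar1, the receptor for C5a, was at 2.47, 2.51, 2.90 and 1.60 CPM in WSD+beta-Glucan, 4.56, 4.66, 4.20, 5.08 and 7.72 CPM in WSD, 0.938, 0.745, 0.360, 0.510 and 0.643 CPM in CTRL+beta-Glucan, and 1.63, 0.609, 0.525, 0.177 and 0.618 CPM in CTRL. It rose in WSD against CTRL by 2.86 ± 0.34 (7.28-fold, edgeR adjusted p = 1.17e-06). The ligands of both receptors are cut from the products of C3 and Hc, which did not rise in WSD under either scaling.

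F13a1 encodes the catalytic A subunit of factor XIII, the enzyme that cross-links fibrin, and its partner F13b, the carrier subunit, is made by hepatocytes. F13a1 was at 0.988, 0.934, 0.909 and 0.884 CPM in WSD+beta-Glucan, 1.94, 2.23, 2.03, 1.88 and 1.79 CPM in WSD, 0.505, 0.559, 0.480, 0.139 and 0.495 CPM in CTRL+beta-Glucan, and 0.450, 0.487, 0.466, 0.946 and 0.567 CPM in CTRL. These rest on 228 reads over the 5 WSD libraries and 51 reads over the 5 CTRL libraries. It rose in WSD against CTRL by 1.75 ± 0.27 (3.36-fold, edgeR adjusted p = 1.83e-05). F13b was lower in WSD with TMM scaling (-0.49 ± 0.12, edgeR adjusted p = 0.00209) and at -0.02 with library size alone. The log2 ratio of F13a1 to F13b in TPM, which no scaling between libraries touches, was -7.59 ± 0.25 in WSD+beta-Glucan, -6.38 ± 0.22 in WSD, -8.70 ± 0.77 in CTRL+beta-Glucan and -8.33 ± 0.53 in CTRL (SD). TPM rests on an effective length, which for F13a1 averaged 3479 bases in WSD and 2661 bases in CTRL. Platelets also carry factor XIII A. Their marker Pf4 was at 2.44 ± 0.66 CPM in WSD and 0.368 ± 0.234 CPM in CTRL, Itga2b was at 2.69 ± 0.466 CPM in WSD and 3.35 ± 0.605 CPM in CTRL (SD, n = 5 each), and Gp1bb was at 0 in 4 of the 5 WSD libraries and in all 5 CTRL libraries. Only 2 of the 10 platelet markers had enough reads to test, and 1 of them, Pf4, rose. The 10 markers summed to 5.24 to 7.24 CPM in WSD and 3.15 to 5.86 CPM in CTRL, and their part in the F13a1 result was not tested.

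**Figure D2:**
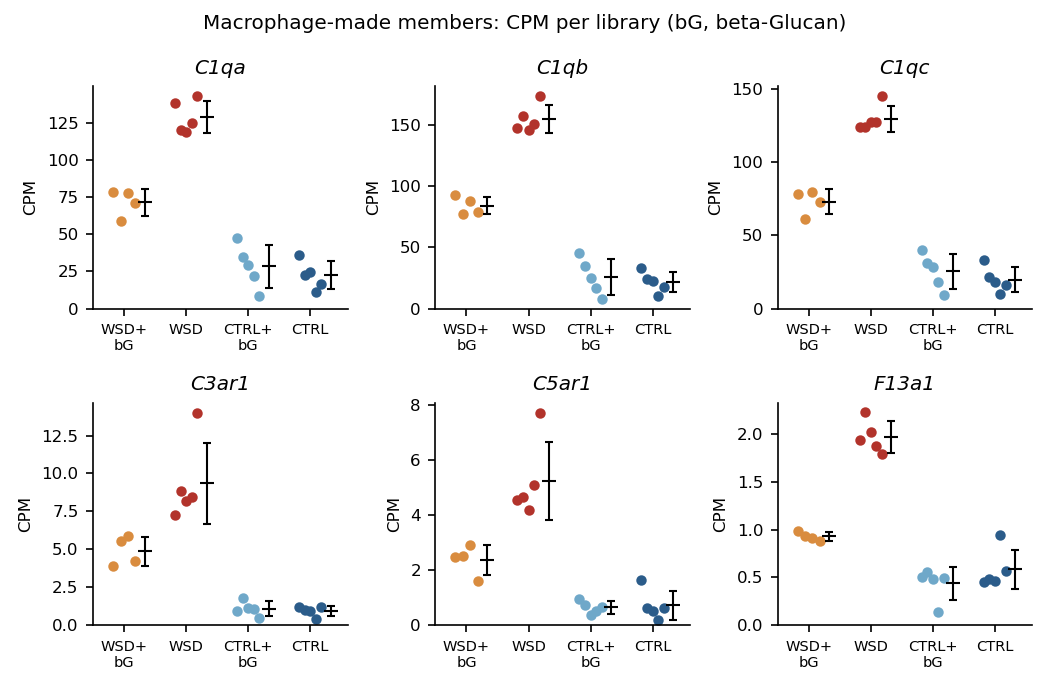
CPM per library of the 6 macrophage-made members in the 4 groups; each point is 1 library and the bar is the mean with the SD. In every panel the WSD libraries lie above the WSD+beta-Glucan libraries, which in C1qb lie between 77.3 and 92.8 CPM. Both lie above CTRL, except that 1 CTRL library reaches into the WSD+beta-Glucan range for C5ar1, at 1.63 CPM, and 1 for F13a1, at 0.946 CPM.

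Markers of macrophages moved with these 6 members. All 14 macrophage markers rose in WSD against CTRL, at a median log2 fold change of 3.18, and none of the 14 was at 0 in any group. Their summed level ran from 493 to 586 CPM in WSD+beta-Glucan, 850 to 1010 CPM in WSD, 63.0 to 195 CPM in CTRL+beta-Glucan and 64.1 to 166 CPM in CTRL. The defining markers Adgre1, Csf1r and Cd68 rose by 2.60 ± 0.29, 2.19 ± 0.33 and 3.56 ± 0.32. Of 7 Kupffer cell markers 4 rose and 1 fell. Clec4f, a marker of the resident cells, rose by 1.53 ± 0.38, whereas Timd4 had a log2 fold change of -0.35 ± 0.46 that did not pass (edgeR adjusted p = 0.542). All 6 monocyte markers rose, with a median of 3.09. Over all genes tested, 26.0% rose and 27.1% fell in WSD against CTRL.
Ratios of these members to the macrophage markers differed with the marker. The log2 ratio of C1qa to Csf1r in TPM was 2.31 ± 0.13 in WSD+beta-Glucan, 2.60 ± 0.25 in WSD, 2.44 ± 0.11 in CTRL+beta-Glucan and 2.22 ± 0.08 in CTRL (SD). The ratio of C1qa to Cd68 ran the other way, at 1.96 ± 0.20 in WSD+beta-Glucan, 1.75 ± 0.16 in WSD, 2.88 ± 0.28 in CTRL+beta-Glucan and 2.78 ± 0.34 in CTRL. Its ratio to Adgre1 was 4.49 ± 0.53 in WSD and 4.57 ± 0.37 in CTRL. The ratio of C3ar1 to Csf1r was higher in every WSD library, at -3.59 to -2.86, than in any CTRL library, at -4.78 to -3.88. Against Adgre1 the C3ar1 ranges overlapped, at -1.90 to -0.79 in WSD and -2.58 to -1.61 in CTRL. Against Cd68 they also overlapped, at -4.36 to -3.91 in WSD and -4.27 to -3.25 in CTRL. How much of the rise lies in macrophage number was not tested.

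Among hepatocyte-made members, the components of the membrane pore stood out by C8b. Hc encodes C5, C6 binds its cleaved form, C8a, C8b and C8g form the C8 complex, and C9 closes the pore. C8b was at 69.8, 89.0, 58.0 and 73.7 CPM in WSD+beta-Glucan, 56.9, 57.3, 94.3, 68.2 and 39.9 CPM in WSD, 382, 342, 218, 229 and 203 CPM in CTRL+beta-Glucan, and 210, 243, 334, 365 and 329 CPM in CTRL. Every WSD and WSD+beta-Glucan library lay below every library without WSD. The log2 fold change of WSD against CTRL was -2.23 ± 0.23 with TMM scaling (4.68-fold lower, edgeR adjusted p = 3.25e-07) and -1.77 ± 0.19 with library size alone, the largest decrease of any member under both. C8a was at 364, 305, 231 and 296 CPM in WSD+beta-Glucan, 266, 320, 406, 250 and 222 CPM in WSD, 813, 697, 374, 462 and 424 CPM in CTRL+beta-Glucan, and 500, 590, 655, 586 and 557 CPM in CTRL. It fell by 0.98 with TMM scaling (SE 0.20, 1.97-fold lower, edgeR adjusted p = 0.000397) and by 0.52 with library size alone (SE 0.17). C6 was at 92.9, 214, 186 and 133 CPM in WSD+beta-Glucan, 170, 135, 187, 173 and 123 CPM in WSD, 386, 339, 264, 228 and 195 CPM in CTRL+beta-Glucan, and 228, 225, 316, 313 and 345 CPM in CTRL. Its log2 fold change was -0.86 ± 0.22 with TMM scaling (edgeR adjusted p = 0.00275) and -0.39 with library size alone, which did not pass (adjusted p = 0.0987).

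The 3 chains of C8 did not keep their ratio. The log2 ratio of C8a to C8b in TPM was 1.63 ± 0.28 in WSD+beta-Glucan, 2.01 ± 0.32 in WSD, 0.60 ± 0.22 in CTRL+beta-Glucan and 0.44 ± 0.34 in CTRL (SD). It ran from 1.63 to 2.39 in the WSD libraries and from 0.10 to 0.82 in the CTRL libraries, without overlap. The ratio of C8g to C8b was 3.37 ± 0.27 in WSD+beta-Glucan, 3.45 ± 0.39 in WSD, 1.83 ± 0.19 in CTRL+beta-Glucan and 1.61 ± 0.41 in CTRL. C9, which binds to the finished C8 complex, had a log2 fold change of 0.03 ± 0.23 in WSD against CTRL with TMM scaling. That did not pass (edgeR adjusted p = 0.913), whereas with library size alone C9 rose by 0.49 (edgeR adjusted p = 0.0316). As TPM it ran from 277 to 378 in WSD and from 190 to 268 in CTRL, without overlap. Its log2 ratio to C8b in TPM was 3.0 ± 0.32 in WSD and 0.66 ± 0.28 in CTRL. Because both genes are read in the same library, these ratios do not depend on the scaling between libraries. They do depend on the effective lengths behind TPM, which for C8a averaged 2559 bases in WSD and 3171 bases in CTRL. Hc had a log2 fold change of -0.62 ± 0.18 (edgeR adjusted p = 0.00795) and C8g of -0.45 ± 0.12 (edgeR adjusted p = 0.00496) with TMM scaling, against -0.16 and 0.01 with library size alone.

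**Figure D3:**
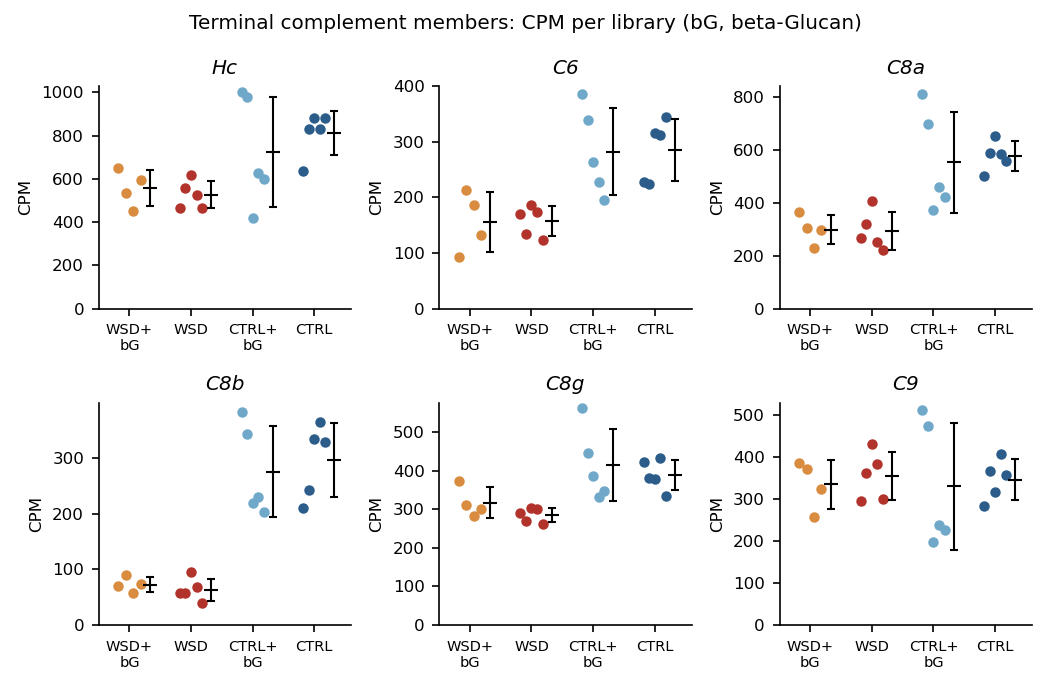
CPM per library of the 6 terminal complement members in the 4 groups; each point is 1 library and the bar is the mean with the SD. In C8b the WSD libraries lie between 39.9 and 94.3 CPM and the CTRL libraries between 210 and 365 CPM, whereas in C9 the groups overlap; with library size alone, C8g and C9 lie higher in WSD than in CTRL.

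C8a and C8b are neighbours on chromosome 4 on opposite strands, with their ends facing each other, so that their promoters are far apart. Their upstream 210 bases (RefSeq, GRCm38.p6, 5′ to 3′ on each gene's strand) are shown because both genes fell under both scalings and by different amounts. Capitals mark the half-site GTTAAT of the hepatocyte factor HNF1 on either strand (ATTAAC on the other). The bases shown for C8b lie at chr4:104766107-104766316 on the plus strand, and those for C8a at chr4:104876399-104876608 on the minus strand.
C8b: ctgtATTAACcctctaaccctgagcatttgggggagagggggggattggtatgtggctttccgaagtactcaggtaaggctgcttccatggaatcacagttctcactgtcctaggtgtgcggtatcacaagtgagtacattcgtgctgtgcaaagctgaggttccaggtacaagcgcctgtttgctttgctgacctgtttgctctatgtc
C8a: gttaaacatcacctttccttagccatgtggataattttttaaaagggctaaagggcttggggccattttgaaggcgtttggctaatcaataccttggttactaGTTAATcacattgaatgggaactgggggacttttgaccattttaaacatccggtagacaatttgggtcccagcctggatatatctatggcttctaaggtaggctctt
Both hold the half-site, at base -206 in C8b and base -107 in C8a. It stood in 25.0% of the 24 promoters of hepatocyte-made members in the table and in 7.13% of 32544 promoters. Other letters of liver factors were also counted on both strands. The HNF4 letters CAAAGTCCA with up to 1 mismatch stood in 16.7% of the members' promoters and in 8.51% of all. The C/EBP letters TTGCGCAA with up to 1 mismatch stood in 16.7% and 5.93%, and the STAT letters TTCNNNGAA in 20.8% and 8.33%. A STAT match can share bases with a PU.1 match, since both can hold TTCC. None of these 4 motifs was in a promoter of a macrophage-made member. The factor gene Hnf4a was at 427 ± 31.2 CPM in WSD and 726 ± 86.4 CPM in CTRL (SD, n = 5 each), a log2 fold change of -0.77 ± 0.13 with TMM scaling (edgeR adjusted p = 9.09e-05).

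C3, the protein on which all 3 pathways meet, was by level per length second among the members, at 1930 ± 241 TPM in WSD and 2230 ± 325 TPM in CTRL (SD, n = 5 each). It was at 6470, 5680, 5890 and 6620 CPM in WSD+beta-Glucan, 4280, 5680, 5980, 5510 and 5500 CPM in WSD, 9670, 9250, 6560, 7700 and 8840 CPM in CTRL+beta-Glucan, and 7710, 8640, 12100, 9130 and 9810 CPM in CTRL. As CPM, all WSD libraries lay below all CTRL libraries. C3 fell by 0.81 in WSD against CTRL with TMM scaling (SE 0.13, edgeR adjusted p = 4.53e-05) and by 0.35 with library size alone (SE 0.11, adjusted p = 0.00948). Cfb, whose product cleaves C3 in the alternative pathway, had a log2 fold change of -0.49 ± 0.12 with TMM scaling (edgeR adjusted p = 0.00239) and -0.02 with library size alone. Cfi, whose product inactivates C3b and C4b, was at 361, 421, 462, 422 and 360 CPM in WSD and 568, 618, 562, 506 and 517 CPM in CTRL. Its CPM did not overlap, and its log2 fold change was -0.45 ± 0.15 with TMM scaling (edgeR adjusted p = 0.0167) and 0.01 with library size alone.

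The members that start the classical and lectin pathways had a median log2 fold change of -0.29 with TMM scaling, nearer to 0 than that of any other hepatocyte-made role group described here. Of the 8, which are C1ra, C2, C4b, Mbl1, Mbl2, Masp1, Masp2 and Serping1, 4 fell with TMM scaling (C1ra, Masp2, Mbl1 and Serping1), and with library size alone none fell and C4b rose. C1ra, a protease of the C1 complex, had a log2 fold change of -0.56 ± 0.10 with TMM scaling (edgeR adjusted p = 0.000113), and its near copy C1rb had almost no reads. Serping1, the inhibitor of C1 and of the contact proteases, had -0.52 ± 0.14 (edgeR adjusted p = 0.00342). Mbl1, a mannose-binding lectin, was at 181, 160, 173, 167 and 132 CPM in WSD and 207, 191, 245, 226 and 217 CPM in CTRL, without overlap. The lectins Mbl1 and Mbl2 had -0.42 ± 0.13 (edgeR adjusted p = 0.00929) and -0.12 ± 0.18 (edgeR adjusted p = 0.602), and 0.05 and 0.34 with library size alone. C2, the protease of the C3 convertase, had -0.23 ± 0.13 with TMM scaling and 0.24 with library size alone, and passed under neither.

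Masp2, the protease of the lectin complexes that cleaves C4, was at 169, 174, 196, 193 and 156 CPM in WSD and 216, 234, 232, 220 and 234 CPM in CTRL. These CPM did not overlap, and the log2 fold change was -0.35 ± 0.08 with TMM scaling (edgeR adjusted p = 0.00137) and 0.11 with library size alone. Masp1, whose transcripts are spliced into several proteins, had a log2 fold change of -0.22 ± 0.11 that did not pass (edgeR adjusted p = 0.116), while the share of its reads between transcripts differed. The transcript Masp1-201 held 54.6 ± 2.87% of the Masp1 reads in WSD+beta-Glucan, 48.6 ± 3.96% in WSD, 71.2 ± 6.08% in CTRL+beta-Glucan and 76.2 ± 5.85% in CTRL (SD), and most of the remainder was Masp1-203. The share ran from 43.9% to 54.8% in the WSD libraries and from 68.6% to 85.0% in the CTRL libraries. Salmon's division of reads between transcripts is an estimate, and this pair was picked after its values were seen.

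C4b encodes C4, which is cleaved beside C2 to form the classical C3 convertase, and it was the member for which the measure mattered most. In CPM it was at 1680, 1630, 1860, 1520 and 1530 in WSD and 1230, 2000, 2200, 1710 and 1580 in CTRL, with a log2 fold change of -0.09 ± 0.19 that did not pass (edgeR adjusted p = 0.726). In TPM it was at 745 ± 136 in WSD and 399 ± 101 in CTRL (SD, n = 5 each). With the effective lengths in the model the log2 fold change was 0.42 (edgeR adjusted p = 0.142). The short transcript C4b-203, of 749 bases and annotated as a retained intron, was at 283, 97.5, 124, 142 and 149 CPM in WSD and 59.6, 106, 39.7, 40.9 and 17 CPM in CTRL. Only 1 CTRL library reached the WSD range. It was at 191, 97.2, 96.1 and 48.9 CPM in WSD+beta-Glucan and 210, 156, 84.9, 30.0 and 29.0 CPM in CTRL+beta-Glucan. These groups overlapped, at means of 108 and 102 CPM, and the highest value of WSD+beta-Glucan and the 2 highest of CTRL+beta-Glucan were those of the libraries of low title number. The protein-coding transcript C4b-201, of 5379 bases, was at 1480 ± 154 CPM in WSD and 1690 ± 370 CPM in CTRL. C4b-203 took 9.73 ± 4.32% of the C4b reads in WSD and 3.09 ± 1.89% in CTRL (SD, n = 5 each), and being short it weighs more in TPM. The transcripts were chosen after their values were seen. The near-identical copy C4a had no transcript among those matched, so reads of C4a may be counted as C4b.

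**Figure D4:**
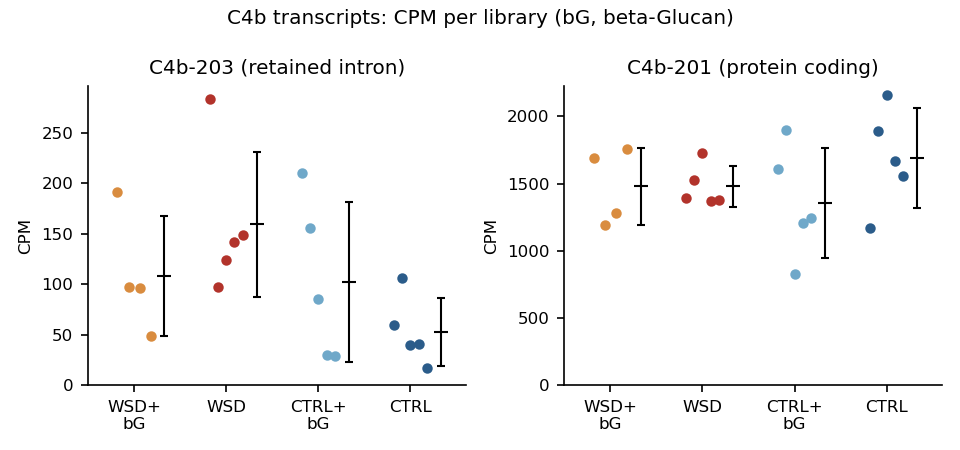
CPM per library of the retained-intron transcript C4b-203 and the protein-coding transcript C4b-201 in the 4 groups; each point is 1 library and the bar is the mean with the SD. C4b-203 lies between 97.5 and 283 CPM in WSD and between 17 and 106 CPM in CTRL, while C4b-201 overlaps between the groups.

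In the contact system, whose proteases start clotting on surfaces and release bradykinin, all 4 members fell with TMM scaling, and with library size alone Klkb1 did and F11 lay at 0.05. Klkb1, plasma prekallikrein, was at 190, 159, 152 and 176 CPM in WSD+beta-Glucan, 141, 149, 149, 165 and 109 CPM in WSD, 274, 273, 174, 262 and 255 CPM in CTRL+beta-Glucan, and 279, 225, 226, 242 and 256 CPM in CTRL. It fell by 0.79 with TMM scaling (SE 0.12, edgeR adjusted p = 2.52e-05) and by 0.32 with library size alone (SE 0.11, adjusted p = 0.012). Kng1, the kininogen from which bradykinin is cut, had a log2 fold change of -0.63 ± 0.13 (edgeR adjusted p = 0.000324), and -0.17 with library size alone. F12, the factor that starts the pathway, had -0.50 ± 0.10 (edgeR adjusted p = 0.00025) and -0.04. F11, which factor XIIa activates, was at 22.3, 24.9, 26.8, 22.2 and 18.1 CPM in WSD and 29.0, 35.0, 28.0, 26.9 and 34.1 CPM in CTRL (-0.42 ± 0.15, edgeR adjusted p = 0.0226). Its highest WSD library, at 26.8 CPM, lay just under its lowest CTRL library, at 26.9 CPM.

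Of the 6 vitamin K-dependent proteins, which need gamma-carboxylation to bind membranes, F2, F7, F10 and Proc fell with TMM scaling, and with library size alone none of the 6 passed and Proc, F9 and Pros1 lay above 0. F2, prothrombin, had a log2 fold change of -0.54 ± 0.10 (edgeR adjusted p = 0.000187), and F7 and F10, which tissue factor brings together, had -0.65 ± 0.11 each (edgeR adjusted p = 5.49e-05 and 6.97e-05). F9, the antihaemophilic factor B, had -0.30 ± 0.13 and did not pass (edgeR adjusted p = 0.0595). Proc, the precursor of the anticoagulant activated protein C, was at 459, 401, 458, 446 and 397 CPM in WSD and 632, 571, 592, 593 and 492 CPM in CTRL (-0.41 ± 0.12, edgeR adjusted p = 0.00654). Its cofactor Pros1, which is also made outside hepatocytes, had -0.20 ± 0.14 (edgeR adjusted p = 0.226). F5, the cofactor of factor Xa, was at 280, 343, 360, 376 and 303 CPM in WSD and 413, 404, 480, 456 and 503 CPM in CTRL (-0.44 ± 0.12, edgeR adjusted p = 0.004, and 0.02 with library size alone).

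Serpinc1 encodes antithrombin, the main inhibitor of thrombin and factor Xa, and had the highest level per length of all members, at 2150 ± 94.0 TPM in WSD and 2570 ± 239 TPM in CTRL (SD, n = 5 each). It was at 1840, 1470, 1430 and 1700 CPM in WSD+beta-Glucan, 1280, 1370, 1430, 1440 and 1260 CPM in WSD, 2880, 2630, 2150, 2130 and 2170 CPM in CTRL+beta-Glucan, and 2490, 2210, 2280, 2160 and 2060 CPM in CTRL. As CPM, the libraries with WSD all lay below those without it. It fell by 0.73 with TMM scaling (SE 0.11, edgeR adjusted p = 1.2e-05) and by 0.26 with library size alone (SE 0.08, adjusted p = 0.01). The other thrombin inhibitor, Serpind1 (heparin cofactor II), had -0.54 ± 0.12 (edgeR adjusted p = 0.000816), and Plg, the plasmin precursor, had -0.60 ± 0.14 (edgeR adjusted p = 0.00107). With library size alone these lay at -0.08 and -0.14 and did not pass. The 5 members that fell under both scalings were C8b, C8a, C3, Klkb1 and Serpinc1. Their WSD and CTRL libraries did not overlap in TMM-scaled CPM. As TPM, the WSD and CTRL libraries overlapped for C8a, C3 and Serpinc1, and did not for C8b and Klkb1.

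**Figure D5:**
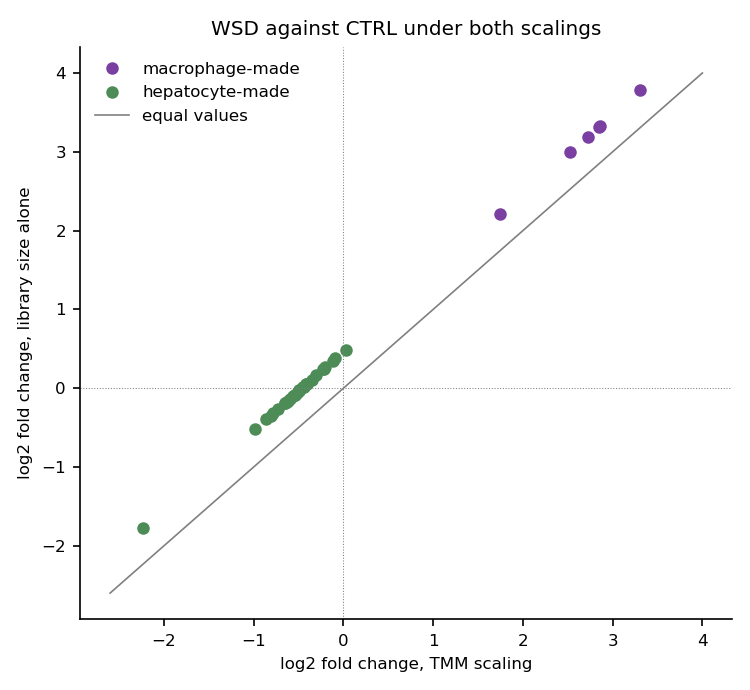
Log2 fold change of WSD against CTRL for the 38 members with TMM scaling (horizontal) and with library size alone (vertical); each point is 1 member and the line marks equal values. All points lie above the line by about the same amount, so that 31 members are below 0 with TMM scaling and 18 with library size alone, while the 6 macrophage-made members are at 1.75 or more on both axes.

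Of the 32 hepatocyte-made members, 10 are known to be made by other cells as well, which are C1ra, C2, C3, C4b, Cfb, Serping1, F7, F10, Pros1 and Masp1. Of these 10, 6 fell with TMM scaling, and with library size alone 1 fell and 1 rose; over all genes 27.1% and 4.54% fell. Markers of other cells moved between the same groups: 12 stellate cell markers summed to 524 to 854 CPM in WSD and 150 to 431 CPM in CTRL, 7 cholangiocyte markers to 107 to 389 CPM in WSD and 37.4 to 72.0 CPM in CTRL, and 8 T cell markers to 7.18 to 16.7 CPM in WSD and 1.89 to 4.56 CPM in CTRL. Their part in the members' values was not tested. By level per length in CTRL, the order of the members began with Serpinc1, C3, Kng1 (1170 TPM), F2 (1050 TPM) and Plg (981 TPM), whose SDs of 130, 89.7 and 71.3 TPM overlap for the last 3. C1qa, C1qb and C1qc were at 27.6, 23.3 and 21.1 TPM in CTRL, and at 222, 235 and 194 TPM in WSD, within the range of the hepatocyte-made proteases. C3ar1, C5ar1 and F13a1 came last in both groups. All 38 members together took 1.42 ± 0.0385% of the TPM in WSD and 1.41 ± 0.115% in CTRL (SD, n = 5 each).

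In WSD+beta-Glucan against WSD, none of the 38 members passed, at a background of 0.390% of all genes tested in either direction (12 higher and 41 lower). At an unadjusted p under 0.05 there were 2118 of all genes and 12 members, 6 of them macrophage-made, and DESeq2 and limma-voom each called 3 members lower. All 6 macrophage-made members had negative log2 fold changes and libraries that did not overlap, with every WSD+beta-Glucan library below every WSD library. Over all genes tested, 4.83% were lower without overlap. The values were -0.85 ± 0.35 for C1qa, -0.88 ± 0.35 for C1qb and -0.83 ± 0.32 for C1qc (edgeR adjusted p = 0.253, 0.245 and 0.223). They were -0.94 ± 0.25 for C3ar1, -1.15 ± 0.32 for C5ar1 and -1.08 ± 0.27 for F13a1 (edgeR adjusted p = 0.0884, 0.104 and 0.0729). Fitted on the 9 libraries of both groups alone, edgeR called all 6 lower, at a background of 3.07% of 13371 genes, with adjusted p from 0.000474 for C1qb to 0.0231 for C3ar1. DESeq2, limma-voom and library size alone each called C3ar1, C5ar1 and F13a1 lower. Without WSD replicate 5, the highest WSD library for 5 of the 6, the values were -0.75 for C3ar1, -0.97 for C5ar1 and -1.12 for F13a1, and none of the 38 passed. The macrophage markers moved with these values: all 14 had negative log2 fold changes, none passed, and the median was -0.83. Their part in the members' values was not tested.

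The hepatocyte-made members lay slightly above 0 in the same comparison, at a median of 0.18, with 27 of 32 positive and a range of -0.08 to 0.29; with library size alone the median was 0.02. The median over all genes tested was 0.01 with TMM scaling and -0.14 with library size alone. The lowest unadjusted p was that of Masp2 (0.24 ± 0.09, unadjusted p = 0.0129, edgeR adjusted p = 0.198). C8b, the member that fell most in WSD against CTRL, had a log2 fold change of 0.20 ± 0.23 (edgeR adjusted p = 0.72), so the WSD+beta-Glucan level of 72.6 ± 12.8 CPM (SD, n = 4) was not told apart from the WSD level of 63.3 ± 20.1 CPM (SD, n = 5). This comparison and that of WSD with CTRL share the WSD libraries, so opposite signs in both are not independent.

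In CTRL+beta-Glucan against CTRL no member passed, at a background of 0.00736% (1 gene of all tested), and none had an unadjusted p under 0.05, against 775 of all genes; DESeq2 and limma-voom called none of the members either. The macrophage-made members ranged from -0.44 to 0.37 and the hepatocyte-made members from -0.26 to 0.27. Without the 3 libraries of low title number all 38 log2 fold changes were at or below 0, with a median of -0.16, and again none passed. The difference between the beta-glucan effects with and without WSD also called no member, at a background of 0.00736%, with 5 members and 1866 of all genes at an unadjusted p under 0.05 and no member called by DESeq2 or limma-voom. Its values for the macrophage-made members were all negative, from -1.20 ± 0.44 for C1qc (edgeR adjusted p = 0.278) to -0.64 ± 0.41 for F13a1 (edgeR adjusted p = 0.476).

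Among mice given beta-glucan, WSD+beta-Glucan against CTRL+beta-Glucan again had all 6 macrophage-made members higher, at a background of 19.1%, by 1.11 to 2.17 on the log2 scale. F13a1 did not pass with effective lengths in the model (0.80, adjusted p = 0.0564), and passed under the other 28 alternatives. The libraries of the 6 did not overlap, at a background of 14.4% of all genes higher without overlap. The values were 1.34 ± 0.35 for C1qa, 1.70 ± 0.36 for C1qb, 1.53 ± 0.32 for C1qc, 2.17 ± 0.28 for C3ar1, 1.90 ± 0.37 for C5ar1 and 1.11 ± 0.30 for F13a1. With TMM scaling 19 hepatocyte-made members were lower, at a background of 15.2%, and with library size alone 6 were lower and 3 higher. The median over all genes tested was -0.01 with TMM scaling and 0.28 with library size alone. Below that median lay 28 of the 32 hepatocyte-made members under both scalings. C8b again fell most, by 1.92 (SE 0.25, 3.78-fold lower, edgeR adjusted p = 1.58e-05). The count of 19 rested in part on the libraries of low title number, with 8 lower and 1 higher among hepatocyte-made members when they were left out. The shares of 19.1% and 15.2% belong to the main fit. Those over all genes with library size alone or without these libraries are not given here. In CTRL+beta-Glucan, C8a was at 813 and 697 CPM in those 2 libraries and at 374, 462 and 424 CPM in the rest, and Hc at 1000 and 980 CPM, against 420, 626 and 600 CPM. C8b was at 382 and 342 CPM in them and at 218, 229 and 203 CPM in the rest, all above the WSD+beta-Glucan range of 58.0 to 89.0 CPM.

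Other genes of both cascades were read from lists of textbook members, also chosen with earlier results of these data known. Of 26 other complement genes tested, 10 rose and 6 fell in WSD against CTRL with TMM scaling, and with library size alone 15 rose and 3 fell. Over all genes tested these shares were 26.0% and 27.1%, and 57.9% and 4.54% with library size alone. The smallest p among those that rose belonged to complement receptor integrins. Itgax, a chain of complement receptor 4, was at 7.57 ± 2.38 CPM in WSD+beta-Glucan (SD, n = 4), 18.3 ± 3.80 CPM in WSD and 0.440 ± 0.227 CPM in CTRL (SD, n = 5 each). It rose by 5.35 ± 0.29 (edgeR adjusted p = 8.65e-11), and its partner chain Itgb2 and the complement receptor 3 chain Itgam rose by 3.14 ± 0.25 and 2.67 ± 0.31. Cfd, complement factor D, which adipocytes secrete, was at 31.0 ± 19.5 CPM in WSD and 1.46 ± 1.31 CPM in CTRL (SD, n = 5 each), a log2 fold change of 4.44 ± 0.61 (edgeR adjusted p = 1.65e-05). It was the only 1 of 4 adipocyte markers with enough reads to test. Itgax was also the only gene of the complement list called in WSD+beta-Glucan against WSD, where it fell by 1.28 (SE 0.23, edgeR adjusted p = 0.0261). Among those that fell with TMM scaling was Cpn2, a subunit of carboxypeptidase N, which trims the anaphylatoxins (-0.79 ± 0.15, edgeR adjusted p = 0.000152).

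Of 32 other coagulation and fibrinolysis genes tested, 12 rose and 13 fell in WSD against CTRL with TMM scaling, and with library size alone 18 rose and 2 fell, against the same shares over all genes of 26.0% and 27.1%, and of 57.9% and 4.54%. The plasminogen activators Plau and Plat rose by 3.63 ± 0.30 and 3.78 ± 0.50, and the endothelial protein C receptor Procr by 2.93 ± 0.36 (edgeR adjusted p = 9.36e-09, 5.06e-06 and 1.48e-06). Plau was at 8.59 ± 1.64 CPM in WSD and 0.694 ± 0.283 CPM in CTRL (SD, n = 5 each), while its substrate Plg fell with TMM scaling and did not pass with library size alone. Among those that fell with TMM scaling, the lowest p belonged to Lman1, which carries factors V and VIII out of the endoplasmic reticulum (-0.54 ± 0.08), the protease inhibitor Pzp (-0.78 ± 0.13), and Vkorc1, which recycles the vitamin K used for carboxylation (-0.45 ± 0.08). Of 23 regulators of these genes tested, 5 rose and 7 fell with TMM scaling, and 12 rose and 1 fell with library size alone, again beside 26.0% and 27.1%, and 57.9% and 4.54%, of all genes. Irf1, a factor of the interferon response, rose by 1.26 ± 0.13 (edgeR adjusted p = 1.86e-07).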

How the data were processed

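RNA of mouse liver for 19 libraries was extracted with a PureLink kit and prepared with TruSeq Stranded mRNA kits, per the labels' protocols. Salmon 1.10.1 and DESeq2 1.38.3, with the genome build GRCm39, are named in the submitters' processing notes. The transcript set is not given in the sources used here. The authors deposited 1 Salmon table per library, with an estimated count of reads, a TPM value and an effective length for each transcript. Per the file headers these are NumReads, TPM and EffectiveLength, the last of which is another measure of length in bases.

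Estimated counts and TPM were summed per gene through GENCODE M21, an annotation of GRCm38, which held 115977 of 116546 transcripts (99.51%). Names, gene order, strand and transcript type were taken from it, and no coordinates. Summed counts were rounded and tested with edgeR 4.0.16 in R 4.3.3 on genes passing filterByExpr (minimum count 10), with TMM scaling, 1 mean per group, robust quasi-likelihood F tests and Benjamini-Hochberg adjustment over 13594 genes at 0.05. All 19 libraries shared 1 estimate of the spread. The fit was tested on simulated data. CPM are TMM-scaled, and ± after a log2 fold change is its SE. No libraries held identical values. Effective lengths entered 1 alternative. Others were RLE scaling, library size alone (chosen after seeing the TMM factors), no filter, DESeq2 1.42.0, limma-voom 3.58.1, near copies summed, the 3 libraries of low title number left out or as a term, the compared groups alone, and each library left out.

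Values per library were given for the macrophage-made members, for the 6 largest and 6 smallest decreases that passed in WSD against CTRL, for members that passed elsewhere and for near copies. Of other lists, up to 3 genes with the smallest p in each direction were named, besides defining markers. Some genes that the rule would name are not reported here. The C4b and Masp1 transcripts, and C8b, C9 and F13b in ratios, were chosen after their values were seen. Members and lists were chosen with earlier results of these data known.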

Additional observations from a re-analysis of the deposited data

Results flagged for a closer look

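Within groups of 4 or 5 libraries, 11 of 152 sets of values of a member held 1 library whose gap to its nearest neighbour was large against the whole range (Dixon's test at 95%), and chance flags about 1 in 20 such sets. In WSD, replicate 5 was highest for C1qc at 145 CPM (the others at 124 to 127 CPM), for C3ar1 at 14 CPM (7.28 to 8.83 CPM) and for C5ar1 at 7.72 CPM (4.20 to 5.08 CPM). F13a1 was lowest in CTRL+beta-Glucan replicate 4 at 0.139 CPM (0.480 to 0.559 CPM) and highest in CTRL replicate 4 at 0.946 CPM (0.450 to 0.567 CPM). C3 was lowest in WSD replicate 1 at 4280 CPM (5500 to 5980 CPM), and Hc was lowest in CTRL replicate 1 at 637 CPM (831 to 881 CPM). In WSD+beta-Glucan replicate 1, Mbl1 was highest at 221 CPM (158 to 167 CPM) and F11 at 28.9 CPM (23 to 24.0 CPM). Pros1 was highest in WSD replicate 4 at 65.3 CPM (52.2 to 55.9 CPM), and Klkb1 was lowest in CTRL+beta-Glucan replicate 3 at 174 CPM (255 to 274 CPM).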

How the results depend on the processing

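No paired analysis was possible because the labels give no replicate numbers, which were assigned here in accession order. C1qa, C1qb, C1qc, C3ar1, C5ar1, F13a1, C8a, C8b, C3, Klkb1 and Serpinc1 passed in WSD against CTRL with the same sign under all 29 alternatives. In that comparison the count of members lower was 25, and 5 with library size alone and 24 to 26 with 1 library left out. With library size alone the log2 fold change turned positive for C2 (0.24), C4b (0.38), C8g (0.01), Cfi (0.01), Masp1 (0.25), Masp2 (0.11), Mbl1 (0.05), Mbl2 (0.34), F5 (0.02), F9 (0.17), F11 (0.05), Proc (0.05) and Pros1 (0.27). C4b was also positive with effective lengths (0.42), and with 1 library left out it ran from -0.19 to 0.01, positive without CTRL replicate 3. C9 ran from -0.04 to 0.10 with 1 library left out, at -0.04 without WSD replicate 3 and -0.03 without CTRL replicate 1.

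In WSD+beta-Glucan against WSD the count of members lower was 0, and 3 with library size alone, DESeq2 or limma-voom, 1 with the 3 libraries of low title number as a term, 6 with the compared groups alone, and 0 to 1 with 1 library left out. Over all genes the count was 53, and 294 with library size alone, 436 with DESeq2, 427 with limma-voom, 35 with effective lengths, 258 with the term, 457 with the compared groups alone, and 2 to 184 with 1 library left out, at 2 without WSD replicate 5 and 184 without CTRL+beta-Glucan replicate 5. In CTRL+beta-Glucan against CTRL the count over all genes was 1, and 0 with library size alone or the compared groups alone, 5 with DESeq2 or without the 3 libraries, 2 with the term, and 0 to 2 with 1 library left out. For the difference it was 1, and 3 with library size alone, 139 with DESeq2, 2 without the 3 libraries or with the term, and 0 to 81 with 1 library left out, at 81 without CTRL+beta-Glucan replicate 5.

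In WSD+beta-Glucan against CTRL+beta-Glucan the count of members lower was 19, and 6 with library size alone, 8 without the 3 libraries, 10 with the compared groups alone, and 12 to 20 with 1 library left out, at 12 without WSD+beta-Glucan replicate 2 or 3. With 1 library left out, C4b ran from -0.00 (without CTRL+beta-Glucan replicate 3) to 0.28 and F9 from -0.07 to 0.10. The sign turned negative for C9 with effective lengths (-0.05) and with 1 library left out (-0.12, -0.09, -0.08, -0.07 and -0.03), and for F9 with effective lengths (-0.03) and with 1 library left out (-0.07, -0.05 and -0.01). The cause of these shifts was not tested. C3ar1, C5ar1 and F13a1 had few reads in CTRL and CTRL+beta-Glucan, which limits the precision of their fold changes there.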
